A study of Rattus norvegicus with 12 samples.

Results

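The comparison described here is CFA against saline in the rostral ventral medulla (RVM) of rats, measured by RNA sequencing in a series on chronic orofacial pain. It rests on 6 of the 12 samples of the series, 3 labelled as saline (0.9% sodium chloride) and 3 labelled as CFA. It was made across the 14289 of 34525 listed genes whose mean over these 6 libraries was at least 1 FPKM (fragments scaled for gene length and sequencing total, a level that can be compared between genes). The other 6 samples came from the thalamus under the same treatments. The labels do not spell out CFA, which in work on rodent pain commonly means complete Freund's adjuvant, mycobacterial material in oil that keeps up a local inflammation. No strain, age, sex, dose, site of injection or time is given, and the labels do not say whether samples came from separate or pooled animals, so each p-value reflects only how far the samples spread, which may be technical.

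The RVM is a brainstem region around the nucleus raphe magnus. Its serotonergic, GABAergic and glutamatergic neurons project to the spinal and trigeminal dorsal horn, where they facilitate or inhibit pain signals, and opioids act on it to relieve pain. Microglia and astrocytes of the region respond to peripheral inflammation, and the region is crossed by many myelinated axons, so oligodendrocyte transcripts are abundant in its RNA.

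The tissue label was checked against defining genes. Tph2, the enzyme of serotonin synthesis in neurons, lay between 36.3 and 66.2 FPKM, and the hindbrain patterning gene Hoxb3 between 10.1 and 13.9 FPKM. The forebrain gene Eomes was listed at 0 in all 6 libraries. These genes are single members of longer lists. Of 24 hindbrain genes, 9 were under 1 FPKM in all 6 libraries. The 19 genes of forebrain and cerebellar neighbours summed to 238 to 299 FPKM, Calb1 among them at 46.3 to 121 FPKM. One sentence of the extraction text speaks of retinas; of 11 photoreceptor and retina genes measured, Rom1 alone reached a mean of 1 FPKM. The libraries held 14.94 to 19.24 M reads assigned to genes, and no pair of replicates was alike to within counting error.

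Across all genes tested, none passed at an adjusted p below 0.05 in either direction in the fit of all 6 libraries (limma on log2(FPKM + 1), Benjamini-Hochberg adjustment; 0.0% higher and 0.0% lower). The smallest adjusted p was 0.242, shared by 435 genes. At an unadjusted p below 0.05 there were 847 genes with higher means in CFA (5.93%) and 1183 with lower means (8.28%). limma-voom on the reads recovered from the values also called 0 genes in each direction. The levels of all 3 CFA libraries lay above those of all 3 saline libraries for 1039 genes (7.27% of those tested) and below them for 1786 (12.5%). CFA libraries 1 and 3 were both above all saline libraries, with CFA library 2 inside the saline range, for 705 genes (4.93%), and both below with library 2 inside it for 1086 (7.6%). The median log2 difference over all genes was -0.02.

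The CFA libraries did not resemble each other equally. On the first principal component of the 6 libraries, which held 44.9% of the variance, the saline libraries lay at -15.6, -17.7 and -18.8, CFA libraries 1 and 3 at 33.5 and 25, and CFA library 2 at -6.4. CFA library 2 correlated with the saline libraries at a mean r of 0.982 across genes and with the other CFA libraries at 0.972. When each library was left out in turn, the fit without CFA library 2 called 390 genes higher (2.73%) and 87 lower (0.609%), and the other 5 fits called 0 to 2 genes in all. Leaving out the library that differs most from its group narrows the spread within that group, so these calls describe what CFA libraries 1 and 3 share and do not replace the result of the 6 libraries. In what follows a gene or group is said to have risen or fallen only where it passed in that fit, and the fit is named. A gene under 1 FPKM in saline was tested only because its CFA libraries were higher, so for lists with such members the counts are also given for members with a saline mean of at least 1 FPKM. Over all genes, 13996 had such a mean, and 917 of these (6.55%) lay above all saline libraries in all 3 CFA libraries. Counts of list members called or separated are read against these shares, 7.27% above and 12.5% below saline over all genes tested, and 2.73% and 0.609% called without CFA library 2. No list was tested as a whole.

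**Figure D1:**
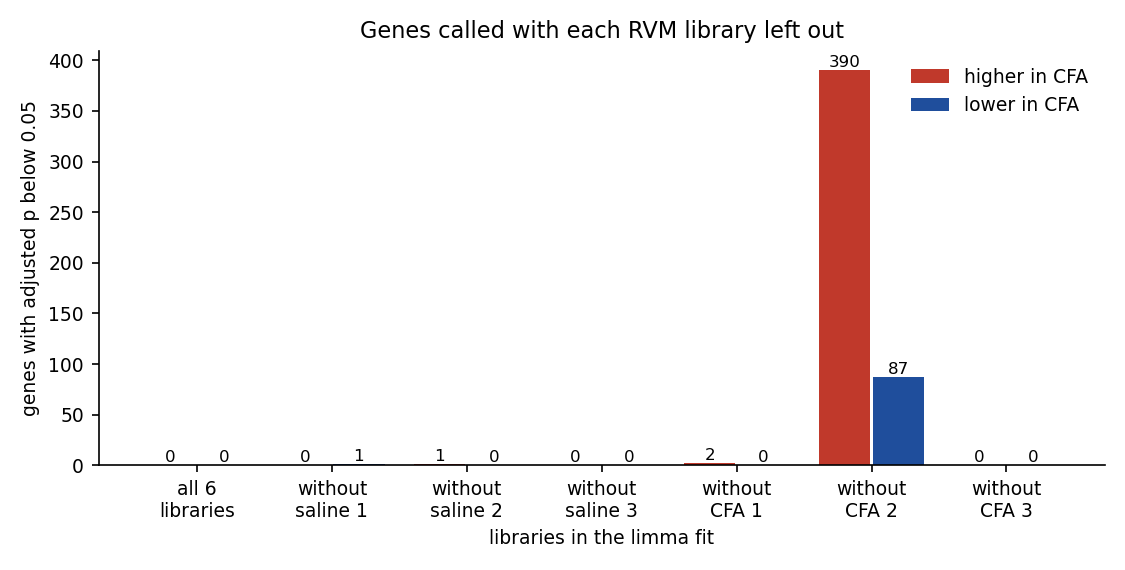
Number of genes (vertical axis) with an adjusted p below 0.05 in limma fits of all 6 RVM libraries and with each library left out in turn (horizontal axis), higher in CFA in red and lower in blue. The fit without CFA library 2 called 390 genes higher and 87 lower; every other fit called at most 2 in a direction.

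Among the genes with wide differences were those of antigen presentation on MHC class II, which displays peptides from ingested material to helper T cells. Of the 10 genes listed, 6 were tested, and 5 of these were above all saline libraries in all 3 CFA libraries (7.27% of all genes were). RT1-Db1 and RT1-Bb were under 1 FPKM in saline, and of the 4 members at or above it 3 lay above saline. Cd74, the invariant chain that escorts class II molecules (ENSRNOG00000018735, listed at chromosome 18, 56071478 to 56080849), was at 18.3, 7.94 and 8.42 FPKM in saline and at 1108, 73.6 and 530 FPKM in CFA. All 3 CFA libraries were above saline, but CFA library 2 was far below the other two. The log2 difference was 4.91 ± 0.93 (SE, limma, adjusted p = 0.242), and without CFA library 2 it was 6.03 (adjusted p = 0.00253).

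The class II chains followed the same order of libraries. RT1-Da, the alpha chain of the D molecule (ENSRNOG00000032844, chromosome 20, 4127644 to 4132616), was at 2.81, 1.23 and 1.21 FPKM in saline and 255, 11.5 and 92.6 in CFA. RT1-Ba, the alpha chain of the B molecule (ENSRNOG00000000451, chromosome 20, 4066132 to 4070721), was at 2.18, 0.369 and 1.73 FPKM in saline and 378, 9.52 and 69.3 in CFA. The beta chain RT1-Db1 was at 0.382 to 1.02 FPKM in saline and at 117, 3.82 and 27.1 in CFA. In each of these genes CFA library 1 was highest and CFA library 2 lowest of its group, and no saline library reached it. RT1-Bb passed with the same order at lower levels, 0.0885 to 0.549 FPKM in saline and 43.2, 0.901 and 7.59 in CFA. Cd74, RT1-Da, RT1-Ba, RT1-Db1 and RT1-Bb rose in the fit without CFA library 2. RT1-DMb, part of the peptide loading chaperone, was at 0.139 to 2.80 FPKM in saline and 0.414, 0.0312 and 11.4 in CFA, and the groups overlapped. RT1 genes are near copies of each other, so how the reads divide between them is uncertain.

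Class II genes share a promoter module, the X box bound by the RFX complex and the Y box bound by NF-Y, through which the coactivator CIITA acts. The stretches below show it for the 4 chains above, since these genes moved together. They come from RefSeq promoters of assembly GRCr8 (300 bases each, 250 before the gene start and 50 after), on the gene's strand, with matches to the core of the X box (ACNGATG) and to the Y box (CTGATTGG) in capitals.
RT1-Da: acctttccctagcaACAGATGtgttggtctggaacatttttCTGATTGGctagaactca
RT1-Db1: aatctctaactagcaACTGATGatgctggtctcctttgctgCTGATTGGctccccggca
RT1-Ba: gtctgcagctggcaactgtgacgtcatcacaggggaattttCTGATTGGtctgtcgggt
RT1-Bb: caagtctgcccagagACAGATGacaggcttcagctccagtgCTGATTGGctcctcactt
They lie at chr20:4515322-4515380 (plus strand), chr20:4560228-4560286 (minus), chr20:4576970-4577028 (plus) and chr20:4604165-4604223 (minus). The Y box was found in all 4, and the X box core in 3, with 20, 19 and 19 bases between the matches in RT1-Da, RT1-Db1 and RT1-Bb and no overlap. The letters of RT1-Ba before its Y box did not match the X box core as spelled here. Searched on both strands, the X box core occurred in 10.2% and the Y box in 3.5% of 33469 rat promoters of this length, and a core followed within 25 bases by a Y box on the gene's strand in 5 (0.0149%). The promoters of RT1-Da, RT1-Db1 and RT1-Bb shown here are among these 5. The letters searched were chosen with class II promoters in view, and a match is a description, not a measured site of binding.

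MHC class I molecules present peptides from inside the cell, cut by the immunoproteasome and loaded by the TAP transporter. Of the 17 genes listed 13 were tested, 8 lay above all saline libraries (7.27% of all genes), the median log2 difference was 1.01, and 12 rose in the fit without CFA library 2 (2.73% of all genes). All 13 had a saline mean of at least 1 FPKM. B2m, the light chain of class I, was at 302, 302 and 314 FPKM in saline and at 780, 391.5 and 613 in CFA. The groups did not overlap, and CFA library 2 was again the lowest of its group. The heavy chain RT1-A1 was at 1.22 to 1.62 FPKM in saline and 14.8, 3.60 and 8.64 in CFA. Psmb9, a catalytic subunit of the immunoproteasome, was at 2.27, 2.45 and 3.85 FPKM in saline and 15.8, 4.80 and 15.5 in CFA. For Psmb8, its partner subunit, CFA library 2 at 2.40 FPKM lay within the saline range of 2.05 to 3.10, whereas CFA libraries 1 and 3 were at 11.2 and 8.89.

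Complement genes encode the proteins that tag cells and debris for uptake and also mark synapses for removal by microglia. Of 13 tested, 9 lay above all saline libraries (7.27% of all genes) and 10 rose in the fit without CFA library 2 (2.73%). Of the 10 members at 1 FPKM or more in saline, 8 lay above all saline libraries (6.55% of such genes) and 9 rose. C3, the central component (ENSRNOG00000046834), was at 10.9, 5.06 and 12.8 FPKM in saline and 139, 27.0 and 93.0 in CFA. Its log2 difference was 2.84 ± 0.61 (SE, limma, adjusted p = 0.242). The recognition subunit C1qb was at 32.5, 29.4 and 24.9 FPKM in saline and 236, 65.2 and 238 in CFA, and C1qa and C1qc had the same order of groups. CFA libraries 1 and 3 were nearly level for C1qb, unlike for class II, and CFA library 2 lay between them and saline. C2, Serping1 (the C1 inhibitor) and C5ar1 (a receptor of the C5a fragment) also lay above saline in all 3 CFA libraries. Cfb was listed at 0 in all 6 libraries.

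**Figure D2:**
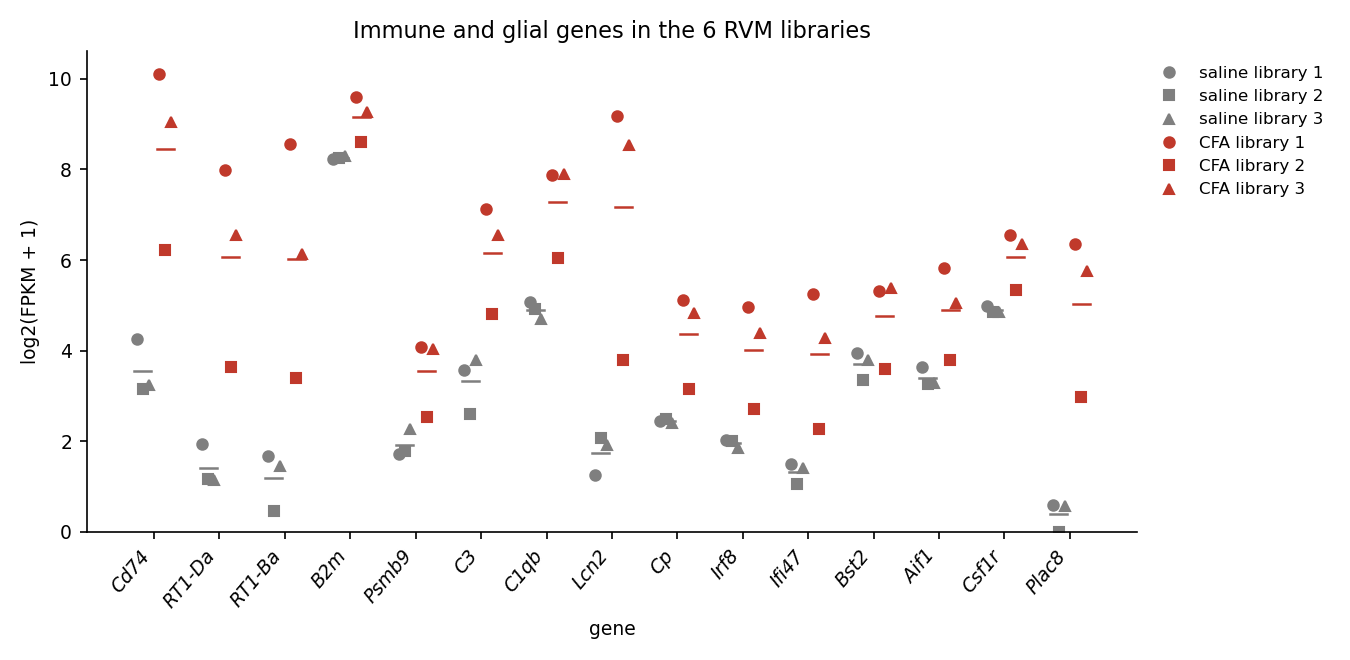
Levels of 15 immune and glial genes (horizontal axis) in each of the 6 RVM libraries as log2(FPKM + 1) (vertical axis), saline in grey and CFA in red, with symbols for libraries 1 to 3 and lines at group means. CFA libraries 1 and 3 are above saline for every gene drawn; CFA library 2 lies between them and saline for most, and within the saline range for Bst2.

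Of the acute phase and STAT3 target genes, 12 were tested, 3 lay above all saline libraries (Lcn2, Cp and Cebpb) and 6 rose in the fit without CFA library 2 (7.27% and 2.73% of all genes). Of these, Socs3 was under 1 FPKM in saline. Lcn2, lipocalin 2, an iron-siderophore binding protein released by reactive astrocytes and neutrophils (ENSRNOG00000013973, chromosome 3, 11414186 to 11417546), had the largest log2(FPKM + 1) difference of all named genes. It was at 1.39, 3.23 and 2.78 FPKM in saline and 583, 12.8 and 369 in CFA. The log2 difference was 5.42 ± 1.32 (SE, limma, adjusted p = 0.242) and 7.11 without CFA library 2 (adjusted p = 0.00119). Cp, the copper ferroxidase ceruloplasmin, was at 4.28 to 4.59 FPKM in saline and 34.0, 7.94 and 27.3 in CFA. For Socs3, the feedback inhibitor of STAT3, CFA libraries 1 and 3 at 3.98 and 5.29 FPKM were above the saline libraries, and CFA library 2 at 0.946 lay within their range of 0.559 to 1.07.

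Lcn2 and Cp also stand in the list of reactive astrocyte genes, of which 10 were tested, 2 lay above all saline libraries (Lcn2 and Cp; 7.27% of all genes) and 5 rose in the fit without CFA library 2 (2.73%). Vim, an intermediate filament protein, was at 35.4, 43.4 and 39.3 FPKM in saline and 120, 42.6 and 101 in CFA. Gfap, the filament protein by which astrocytes are usually stained, was at 674, 679 and 773 FPKM in saline and 1004, 602 and 884 in CFA. For both genes CFA library 2 was not above saline, and for Gfap it was the lowest of the 6. The log2 difference of Gfap was 0.20 ± 0.18 (SE, limma, adjusted p = 0.684). Of 16 general astrocyte markers tested, 0 lay above saline and 2 below (Aqp4 and Aldh1l1), which is at the share of all genes below saline (12.5%), and the median log2 difference was -0.07.

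Of 15 microglia markers tested, 10 lay above all saline libraries (7.27% of all genes) and 9 rose in the fit without CFA library 2 (2.73%). Of the 14 at 1 FPKM or more in saline, 9 lay above saline and 9 rose, with a median log2 difference of 0.82. Aif1, which encodes the Iba1 protein, was at 11.5, 8.57 and 8.82 FPKM in saline and 55.9, 12.9 and 32.2 in CFA. Csf1r, the receptor that microglia need to survive, was at 30.8, 27.8 and 28.1 FPKM in saline and 92.8, 39.3 and 80.3 in CFA. P2ry12, a purinergic receptor of surveying microglia, was at 10.1 to 12.2 FPKM in saline and 32.7, 14.4 and 23.4 in CFA. The groups did not overlap for these 3, and CFA library 2 was the CFA library nearest to saline. Sall1, a transcription factor of microglia, overlapped between groups. In bulk tissue more cells of a type and more RNA per cell cannot be told apart.

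Among 21 tested genes of phagocyte lipid handling and lysosomes, 10 lay above all saline libraries and 1 below (7.27% and 12.5% of all genes). In the fit without CFA library 2, 14 rose (2.73% of all genes). Plac8, Cd68 and Clec7a were under 1 FPKM in saline; of the 18 other members 7 lay above saline (6.55% of such genes) and 11 rose. Plac8, a gene of myeloid cells, was at 0.505, 0 and 0.494 FPKM in saline and 80.3, 6.83 and 53.5 in CFA. Its log2 difference was 4.64 ± 0.82 (SE, limma, adjusted p = 0.242). Cd68, a lysosomal protein of macrophages, was at 0.520 to 0.995 FPKM in saline and 14.0, 1.67 and 9.82 in CFA. Gpnmb and Lgals3, genes of lipid-laden phagocytes, were higher in CFA libraries 1 and 3, whereas CFA library 2 lay within the saline range for both, at 4.01 and 7.67 FPKM. The member below saline was Lpl, lipoprotein lipase, at 7.13 to 9.06 FPKM in saline and 4.64, 5.58 and 6.05 in CFA.

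Blood cells could also carry several of these transcripts. Of 20 measured markers of leukocytes and red cells, 12 were under 1 FPKM in all 6 libraries, among them markers of T and B cells, and Elane was listed at 0. Their summed level was 1070 to 1447 FPKM in saline and 869, 2263 and 876 in CFA, most of it haemoglobin. Hbb, a beta globin gene, was at 395, 651 and 470 FPKM in saline and 399, 1049 and 375 in CFA. Hba-a1, an alpha globin gene, was at 497, 567 and 595 FPKM in saline and 318, 861 and 342 in CFA, and it fell in the fit without CFA library 2 (log2 difference -0.74, limma, adjusted p = 0.013). All 7 tested markers of the list were above all saline libraries in CFA library 2 (24.9% of all genes), which had the highest level of both globins among the 6. The neutrophil genes S100a8 and S100a9 lay above saline in all 3 CFA libraries, S100a9 at 0 to 0.571 FPKM in saline and 2.10, 2.27 and 5.68 in CFA. Both had saline means under 1 FPKM, so they were tested only because their CFA libraries were higher. Of the 5 members at 1 FPKM or more in saline, 0 lay above all saline libraries in all 3 CFA libraries. The part of blood in the other differences was not tested.

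Of 18 tested cytokine and NF-kB genes, 10 lay above all saline libraries (7.27% of all genes) and 7 rose in the fit without CFA library 2 (2.73%). Of the 16 at 1 FPKM or more in saline, 9 lay above saline and 7 rose, with a median log2 difference of 0.60. Icam1, an adhesion molecule, was at 1.30 to 1.52 FPKM in saline and 3.84, 2.06 and 4.79 in CFA. Tlr4, the endotoxin receptor, was at 1.03 to 1.59 FPKM in saline and 3.35, 1.97 and 2.59 in CFA. Il1b was at 0.133, 0 and 0.692 FPKM in saline and 3.14, 0.975 and 1.81 in CFA, which separated the groups at low levels. Its saline mean was under 1 FPKM, so it was tested only because its CFA libraries were higher. Of 8 chemokine genes tested 2 lay above saline and 4 rose in the fit without CFA library 2; of the 6 at 1 FPKM or more in saline these counts were 1 and 2. Cxcl16, a membrane-bound chemokine, was among those that rose (log2 difference 1.43, limma, adjusted p = 0.00253). One of the 2 above saline was Cxcl13, which guides B cells, at 0.163, 0 and 0.053 FPKM in saline and 33.2, 4.59 and 18.7 in CFA, and the other Cxcl14.

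In the interferon list, genes induced by interferons and the factors that switch them on, CFA library 2 departed from the other CFA libraries. Of 27 genes tested, 13 rose in the fit without CFA library 2 (2.73% of all genes). Over all 3 CFA libraries, however, 4 lay above all saline libraries (Irf1, Irf8, Gbp5 and Ifi47), against 7.27% of all genes. Without Ifit1, which was under 1 FPKM in saline, 12 of 26 rose and the same 4 lay above saline. In CFA library 2 alone, 4 of the 27 were above all saline libraries and 11 below them, against 24.9% and 27.5% of all genes. Ifit1, an RNA-binding antiviral protein, was at 0.0597, 0 and 0 FPKM in saline and 7.54, 0 and 5.60 in CFA. Mx1, an antiviral GTPase, was at 2.81, 1.84 and 3.17 FPKM in saline and 15.5, 2.30 and 23.6 in CFA. For these genes CFA library 2 lay within the saline range. Irf8, a transcription factor of myeloid cells, differed from them: it was at 2.62 to 3.10 FPKM in saline and 30.3, 5.53 and 19.9 in CFA, with CFA library 2 above saline.

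**Figure D3:**
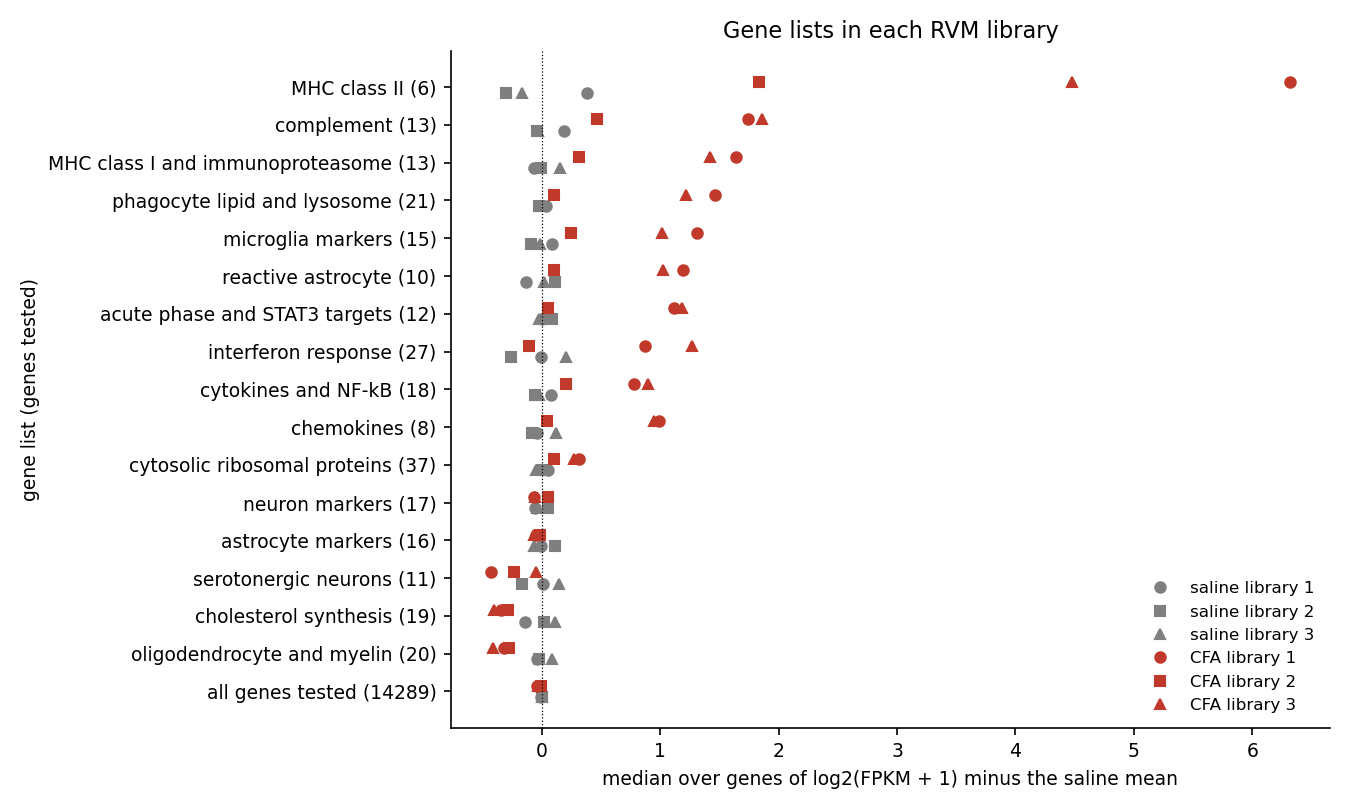
Median over the tested genes of each list (vertical axis, number of genes in brackets) of log2(FPKM + 1) minus the mean of the saline libraries (horizontal axis), for each of the 6 RVM libraries. For MHC class II the CFA medians are 6.32, 1.83 and 4.47 in libraries 1 to 3; for interferon genes library 2 is at -0.11; for cholesterol synthesis and myelin genes all 3 CFA libraries are below saline and close together.

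CFA library 2 was not in the fit that called the 390 and 87 genes. It did count towards the mean of 1 FPKM that let a gene be tested, so its levels there are not fully separate. The saline libraries it is set against took part in the calls. Of the 390, 317 had a saline mean of at least 1 FPKM, and the shares below were not counted for these alone. Genes with low or close saline values are favoured among genes called higher, and the share of all genes is not the share that such a set would show with no difference in CFA library 2, which was not measured. Of the 390 genes that rose, CFA library 2 was above all 3 saline libraries for 274 (70.3%, against 24.9% of all genes), and for 272 it lay between saline and the other CFA libraries. The median log2 difference from saline was 1.24 in CFA libraries 1 and 3 and 0.24 in CFA library 2. Of the 87 genes that fell, CFA library 2 was below all 3 saline libraries for 72 (82.8%, against 27.5% of all genes). There the medians were -0.53 and -0.27. Relative to the other CFA libraries, the difference in CFA library 2 was thus 20.4% in the median gene that rose and 52.2% in the median gene that fell. CFA library 1 exceeded CFA library 3 for 302 of the 390, and for 6914 of all 14289 genes.

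**Figure D4:**
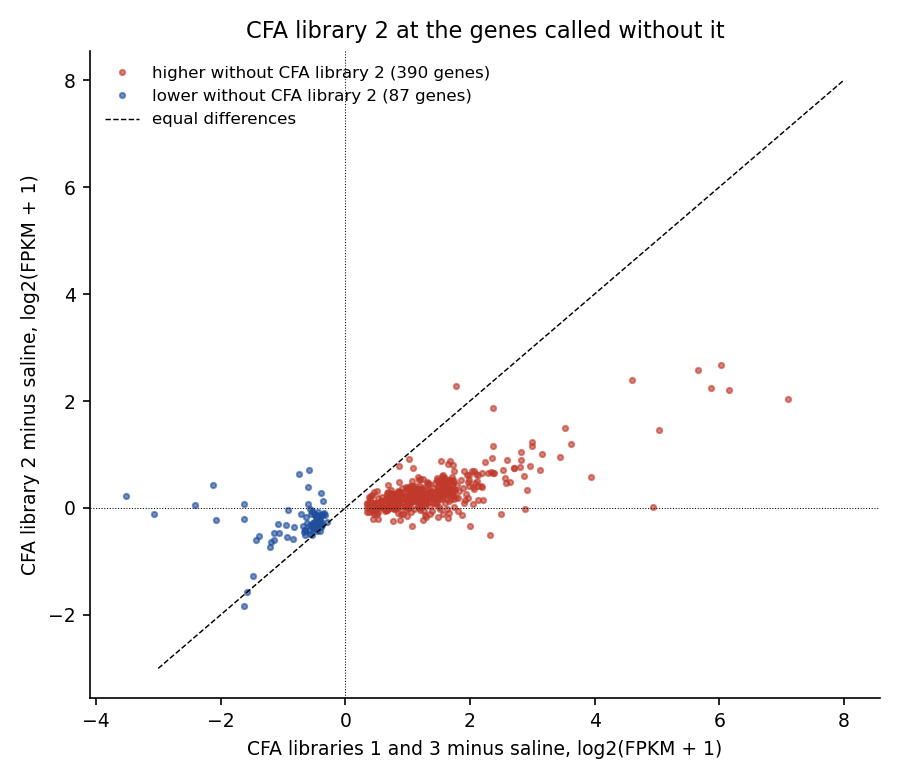
Difference from the saline mean in CFA library 2 (vertical axis) against that in CFA libraries 1 and 3 (horizontal axis), both on log2(FPKM + 1), for the 390 genes called higher (red) and 87 called lower (blue) without CFA library 2; the dashed line marks equal differences. Most red points are above 0 and far below the line, with medians of 1.24 and 0.24, and most blue points are below 0.

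Genes of myelin and cholesterol had lower means in CFA, and here CFA library 2 lay with the other CFA libraries: it was below all saline libraries for 15 of 20 myelin genes and 16 of 19 cholesterol genes (27.5% of all genes). Myelin is made by oligodendrocytes from a few abundant proteins and from lipids rich in cholesterol and galactolipid. Of 20 tested oligodendrocyte and myelin genes, 13 lay below all saline libraries in all 3 CFA libraries and 0 above (12.5% and 7.27% of all genes), with a median log2 difference of -0.41. In the fit without CFA library 2, 3 fell (0.609% of all genes), among them Mog and Fa2h. Mog, a surface protein of the outermost myelin (ENSRNOG00000000775, chromosome 20, 2004052 to 2014286), was at 321, 329 and 356 FPKM in saline and 239, 268 and 234 in CFA. The CFA mean was 73.6% of the saline mean, and no CFA library reached a saline library. The log2 difference was -0.44 ± 0.07 (SE, limma, adjusted p = 0.242).

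Other structural genes had the same separation. Ugt8, the enzyme that makes galactosylceramide, was at 332, 420 and 457 FPKM in saline and 245, 270 and 246 in CFA. Cldn11, the tight junction protein between myelin layers, was at 706, 800 and 850 FPKM in saline and 558, 553 and 573 in CFA. For these genes and for Mbp, Mag and Cnp each CFA library was below each saline library, and for Cldn11 CFA library 2 was the lowest of the 6. Of the transcription factors of the lineage, Olig1, Olig2, Myrf and Nkx6-2 overlapped between groups, whereas Sox10 separated them and was at 40.0 to 45.0 FPKM in saline and 35.6 to 37.9 in CFA. Tf, transferrin, was the 1 member with a higher mean in CFA, at 743 to 846 FPKM in saline and 1061, 763 and 981 in CFA.

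Most of the cholesterol of myelin is made within the brain. Of 19 tested, 14 lay below all saline libraries (12.5% of all genes). At an unadjusted p below 0.05 (limma), 18 had lower means (8.28% of all genes). All 19 had a lower mean in CFA, with a median log2 difference of -0.33. Hmgcs1, which makes the HMG-CoA from which the pathway starts (ENSRNOG00000016552, chromosome 2, 52431601 to 52445055), was at 371, 460 and 520 FPKM in saline and 263, 328 and 270 in CFA. Sqle, which oxidises squalene, was at 87.5 to 109 FPKM in saline and 68.1 to 75.1 in CFA. The groups overlapped for neither gene. Msmo1, a sterol demethylating oxidase, was the 1 member that fell in the fit without CFA library 2 (log2 difference -0.52, limma, adjusted p = 0.0132). Saline libraries also differed among themselves in one order, with library 1 lowest and library 3 highest for Hmgcs1, Sqle and Mbp.

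**Figure D5:**
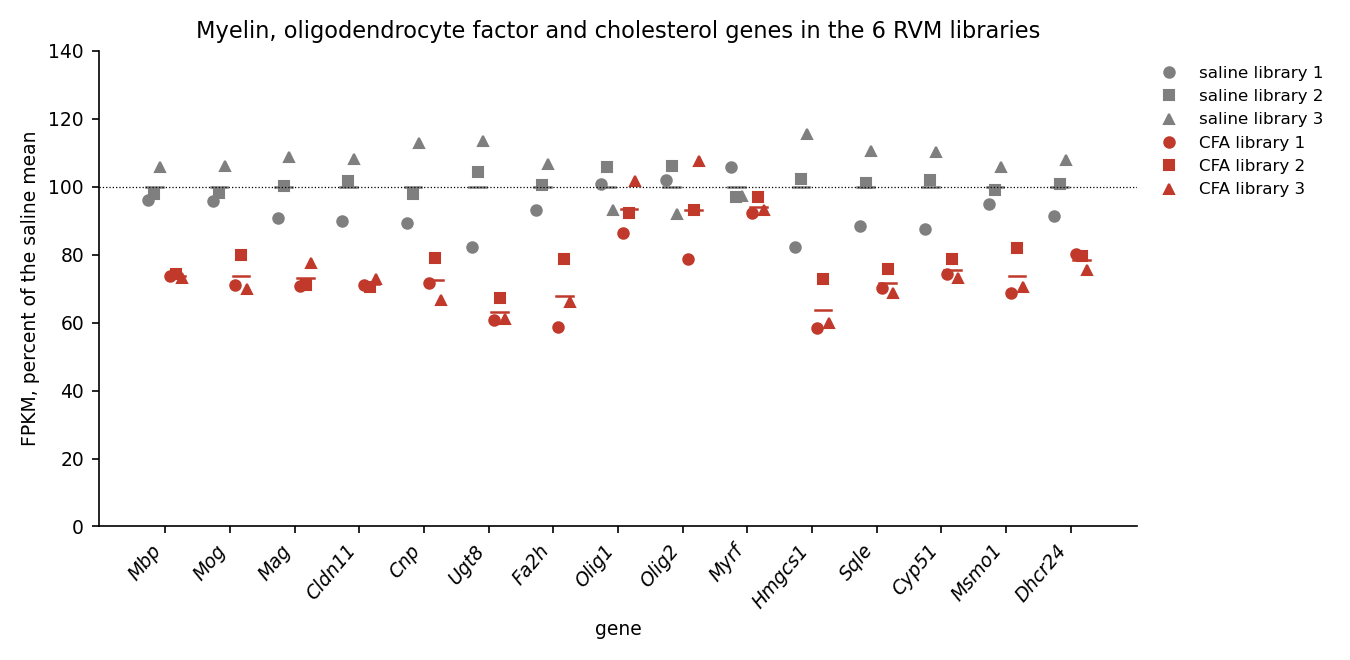
FPKM of 7 myelin genes, 3 oligodendrocyte transcription factors and 5 cholesterol synthesis genes (horizontal axis) in each RVM library as percent of the saline mean (vertical axis), saline in grey, CFA in red, lines at group means. The CFA libraries lie below all saline libraries for the myelin and cholesterol genes (Mog at a mean of 73.6%), and the groups overlap for Olig1, Olig2 and Myrf.

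Oligodendrocyte precursor genes were mixed: of 9 tested, 5 lay below saline and 1 above (12.5% and 7.27% of all genes). Gpr17, a receptor of cells about to differentiate, was at 27.8 to 34.9 FPKM in saline and 23.1, 22.1 and 18.6 in CFA, and Enpp6, a marker of newly formed oligodendrocytes, at 7.48 to 20.4 and 4.57 to 7.41. Bcas1, also of newly formed oligodendrocytes, had the opposite sign, at 264 to 314 FPKM in saline and 326, 356 and 362 in CFA. Pdgfra, the receptor by which precursors are recognised, overlapped between groups.

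The 12 genes with the smallest unadjusted p among those with higher means were Spint1, Cxcl13, Lrg1, C5ar2, Gpx1, Cd37, Plac8, Cd74, Clec4a3, S100a9, S100a8 and Tagap. All 12 lay above saline in all 3 CFA libraries, which choosing genes by p in this comparison favours. Cxcl13, Plac8, S100a9, S100a8 and Tagap had saline means under 1 FPKM, so they were tested only because their CFA libraries were higher. Genes with only an identifier for a symbol were passed over. Spint1, a serine protease inhibitor, was at 3.26, 2.39 and 2.36 FPKM in saline and 5.42, 5.25 and 5.89 in CFA, so CFA library 2 was level with the others. Lrg1, an acute phase glycoprotein, was at 2.62, 1.63 and 1.55 FPKM in saline and 8.21, 9.65 and 23.5 in CFA. Here CFA library 2 exceeded CFA library 1, unlike for class II or Lcn2. Gpx1, a glutathione peroxidase, was at 97.7 to 109 FPKM in saline and 148, 128 and 138 in CFA.

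Of the 12 genes with the smallest unadjusted p among those with lower means, Derl3, Secisbp2l, Col9a3, Sema4d, Selenoi, Gjc3, Cldn11, Tspan15, Cntn1 and Mog are reported here by name, and 1 is listed as 4-Mar, a symbol that a spreadsheet has turned into a date (ENSRNOG00000016472). All of these lay below saline in all 3 CFA libraries, which choosing genes by p favours. Genes with only an identifier for a symbol were passed over here too. Derl3, of the degradation of misfolded proteins in the endoplasmic reticulum, was at 2.61, 2.61 and 4.39 FPKM in saline and 0.323, 0.159 and 0.349 in CFA. Its entry lies on an unplaced sequence. Sema4d, an oligodendrocyte semaphorin, was at 72.8, 81.1 and 91.4 FPKM in saline and 43.7, 54.1 and 46.3 in CFA. Its log2 difference was -0.76 ± 0.11 (SE, limma, adjusted p = 0.242). Gjc3, Cldn11 and Mog are also genes of the oligodendrocyte lineage.

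Genes of the transmitter systems of the RVM mostly overlapped between groups. Of 11 serotonergic genes tested, 2 lay below saline and 1 above, near the shares of all genes (12.5% and 7.27%). Their median log2 difference was -0.29. Tph2 was at 57.5, 45.3 and 66.2 FPKM in saline and 36.3, 40.4 and 51.3 in CFA, and the serotonin transporter Slc6a4 at 19.8, 16.7 and 21.8 and at 11.8, 15.3 and 20.02. Both overlapped between groups (limma, adjusted p = 0.360 and 0.497). The 2 below saline were Gch1, which makes the cofactor of serotonin synthesis, at 7.88 to 10.1 FPKM in saline and 5.91 to 6.89 in CFA, and Ddc, the decarboxylase. En1 was above saline.

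Of 9 tested genes of opioid peptides, receptors and their partners, 1 was above saline and 0 below (7.27% and 12.5% of all genes). The 1 above was Arrb2, an arrestin, at 17.4 to 20.2 FPKM in saline and 20.7 to 24.6 in CFA. Penk, the enkephalin precursor, was at 146, 151 and 131 FPKM in saline and 142, 148 and 164 in CFA, a log2 difference of 0.09 ± 0.08 (SE, limma, adjusted p = 0.676). Pdyn, the dynorphin precursor, was at 3.09 to 3.85 and 3.62 to 5.02 FPKM. The mu opioid receptor gene Oprm1 was under the filter, at 0.374 to 0.606 FPKM in the 6 libraries. Gad1 and Slc32a1, of GABA synthesis and packaging, and Slc17a6, the vesicular glutamate transporter, overlapped between groups. These are single members of longer lists. Of 26 tested genes of glutamate transmission, 8 lay below saline and 2 above, and 22 had a negative log2 difference (median -0.15). Among 23 tested genes of GABA and glycine transmission, 4 lay below saline and 1 above (median -0.07). Over all genes 12.5% lay below and 7.27% above.

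Of 24 other pain-related neuropeptides and receptors tested, 5 lay below saline and 1 above (12.5% and 7.27% of all genes), with a median of -0.14. Those with the smallest unadjusted p were Ramp1, a subunit of the CGRP receptor, at 27.3 to 32.9 FPKM in saline and 20.2 to 24.9 in CFA, Crh, corticotropin-releasing hormone, at 58.8 to 94.8 and 46.9 to 54.9, and Nts, neurotensin, at 6.48 to 11.0 and 4.44 to 6.07. Tac1, Tacr1, Cck, Calca, Bdnf and Ntrk2 overlapped between groups. Fos, by which recently active neurons are marked, was at 9.37, 6.72 and 9.11 FPKM in saline and 7.29, 9.59 and 9.33 in CFA. Of 17 general neuron markers 2 lay below saline (Syt1 and Gap43), near the share of all genes (12.5%), and the summed level of the list was 6030 to 6789 FPKM in saline and 6094 to 6650 in CFA. At these numbers of libraries an overlap does not show that the groups are equal.

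Genes of cytosolic ribosomal proteins formed a further list with small and regular differences. Of 37 tested, 22 lay above all saline libraries and 0 below (7.27% and 12.5% of all genes). The median log2 difference was 0.22, and 6 rose in the fit without CFA library 2 (2.73% of all genes). Rps15 was at 474, 495 and 461 FPKM in saline and 616, 547 and 621 in CFA. Rpl11 was at 39.3 to 43.2 FPKM in saline and 56.8, 47.8 and 53.4 in CFA. CFA library 2 was the lowest of its group for both and still above saline. Ribosomal protein genes have many pseudogene copies, so the level of a single member is uncertain.

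The widest gaps between CFA library 2 and the other CFA libraries were not all in immune genes. Among the 8 genes with the widest gap of CFA library 2 below the other CFA libraries, 5 were the immune genes Lcn2, RT1-Da, Cd74, Plac8 and RT1-Ba, and Ifit1 was described above. The other two were Nhp2 and Fam111a. Nhp2, a ribonucleoprotein of the ribosome and telomerase, was at 0.215 to 0.725 FPKM in saline and 32.3, 0.409 and 53.5 in CFA, and Fam111a at 12.4 to 13.8 in saline and 19.8, 0.375 and 14.9 in CFA. In the other direction Tagln3 was at 3.88 to 5.53 FPKM in saline and 3.37, 89.5 and 4.84 in CFA. Rbm39, a splicing factor, was at 10.3 to 19.6 FPKM in saline and 1.93, 15.3 and 1.93 in CFA. In the fit without CFA library 2, Nhp2 rose and Rbm39 fell (limma, adjusted p = 0.0016 and 0.00656). Nhp2 had a saline mean under 1 FPKM, so it was tested only because CFA libraries 1 and 3 were higher. Wbp1, Tsen34l1, Mff, Gcg and Mir384 varied by over 2-fold among the saline libraries too, and Fam50a was under 1 FPKM in 5 of the 6 libraries.

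The difference of the CFA effect between the RVM and the thalamus was tested over 13738 genes in all 12 libraries, and 0 genes passed in either direction (0.0%, limma, smallest adjusted p = 0.270). At an unadjusted p below 0.05 there were 1560 genes, where 687 would be expected. Of these, 840 had a higher effect in the RVM and 720 a lower one. The split was 233 and 1547 with equal FPKM totals, 599 and 774 with quantile normalization, and 807 and 739 with median-of-ratios scaling. The thalamic libraries also varied in genes of choroid plexus and ependyma. Their summed level was 10420, 2560 and 65.2 FPKM in CFA libraries 1 to 3, and 35.2 to 105 FPKM after saline. The part of this in the difference between regions was not tested. The genes with the smallest p and a lower effect in the RVM were Il1rn, Cd14, Gpnmb, Slamf9, Prcp and Fabp4. Gpnmb was at 4.90, 3.98 and 3.06 FPKM in the saline and 14.2, 4.01 and 11.7 in the CFA libraries of the RVM, and its mean was 2.96 FPKM in thalamus saline and 79.8 in thalamus CFA. Those with a higher effect in the RVM were Etv5, Git1, Camk2n1, Wdtc1, Mir2861 and Dynlt3. Apart from Etv5, their RVM means in CFA were 106.4% to 107.3% of saline, and their thalamic means were lower in CFA. Camk2n1, for instance, had thalamic means of 796 FPKM in saline and 470 in CFA. For Etv5, a transcription factor, RVM levels were 7.05 to 8.40 FPKM in saline and 9.01 to 10.3 in CFA, and thalamic means 20.1 and 12.5.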

How the data were processed

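Per the labels' protocols, TRIzol was used for extraction and an Illumina TruSeq kit, not stated to be stranded, for the libraries. The authors deposited 1 table of FPKM values with coordinates and biotypes, per the file headers; for aligner, counting, build and annotation, nothing is stated in the sources used here. FPKM times gene length was a whole multiple of 1 step for 100% of values (tolerance 0.01), which gave the reads per library. Columns were matched to samples by title.

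Genes whose mean over the 6 RVM libraries reached 1 FPKM were tested with limma 3.58.1 (R 4.3.3; log2(FPKM + 1), trended empirical Bayes, no covariate, 4 residual degrees of freedom, threshold 0.05); fold changes on this scale understate those of low genes. The difference between regions was an interaction term over 12 libraries, for genes reaching 1 FPKM in each region. The steps were tested on simulated data. Alternatives were the pseudocount, filter, scaling, weights, a replicate block, limma-voom and leaving out each library.

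The members, the 40 gene lists, the retina list and the rules were chosen with earlier results of these data known. Of 798 listed symbols 781 matched, 3 by synonym. Named are, per direction, 12 genes (the largest changes past the threshold, filled by smallest p), up to 4 members past the threshold or otherwise the 3 with the smallest p of a described list, 8 by the gap of CFA library 2, 6 by interaction p, and 20 preset genes; others were chosen after their values were seen. Figures used matplotlib 3.10.9. A few genes of these lists are not reported here by name.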

Additional observations from a re-analysis of the deposited data

How the results depend on the processing

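The 0 genes higher and 0 genes lower of the 6 libraries held under 11 planned settings in the first direction; in the second, testing without a filter called 1 gene lower. Leaving out 1 library gave 0 to 390 genes higher and 0 to 87 lower, the upper ends without RVM CFA library 2. Combinations chosen after seeing the data, all without that library, gave 366 higher and 83 lower with a pseudocount of 0.1, 418 and 53 with equal FPKM totals, 414 and 63 with median-of-ratios scaling, 370 and 77 with quantile normalization, and 574 and 141 with limma-voom on recovered reads. For the difference between regions, 11 genes passed without a filter, and leaving out 1 library gave 0 to 15 genes, the 15 without thalamus saline library 1 and 1 without thalamus CFA library 2.

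With a replicate block in the model, 0 genes passed in each direction. Deviations of same-numbered libraries correlated at -0.027, 0.00068 and -0.0077, which gave no sign that the numbers pair the samples. With 3 libraries per group this check cannot exclude pairing or shared processing. The share of genes called higher in which CFA library 2 was above saline was 65.1% with equal totals, against 70.3%. The log2 difference of Fos was -0.081 to 0.167 with 1 library left out (-0.010 without CFA library 2, also with a pseudocount of 0.1, and -0.014 with quantile normalization besides). That of Ntrk2 was -0.051 to 0.076 with 1 library left out (-0.004 without CFA library 2, also with a pseudocount of 0.1). Of 160 named genes, 63 passed without CFA library 2 and 0 under any other planned setting, and 2 changed sign. How far depth limits genes near 1 FPKM was not tested.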

Other observations

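Several genes known for expression in the inferior olive, a nucleus next to the RVM, had lower means in CFA; they were chosen after their values were seen. Calb1, a calcium buffer, was at 93.3, 69.2 and 121 FPKM in saline and 46.3, 59.2 and 50.9 in CFA. Htr5b, a serotonin receptor, was at 38.3, 28.1 and 50.7 FPKM in saline and 18.4, 22.7 and 28.8 in CFA, and Pou4f1, a transcription factor, at 23.9, 20.1 and 35.8 and at 11.9, 15.02 and 21.2. Calb1 separated the groups, and the other two overlapped. Saline library 3 was highest for all 3 genes. A difference in the extent of dissection was not tested.

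Metallothioneins, which bind zinc and copper, followed the order of libraries of the immune genes: Mt2A was at 113, 108 and 62.5 FPKM in saline and 530, 119 and 337 in CFA, and Mt1 at 3.65, 6.82 and 3.10 and at 41.9, 6.44 and 24.5. Dusp6, a phosphatase of the ERK pathway, was the immediate early gene that rose in the fit without CFA library 2, at 5.83 to 6.75 FPKM in saline and 11.9, 7.51 and 14.3 in CFA.

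Ptgds, a prostaglandin synthase of meninges and oligodendrocytes, and the meningeal growth factor Igf2 fell in the same fit; Igf2 was at 6.96, 10.4 and 10.3 FPKM in saline and 3.46, 5.44 and 3.33 in CFA. Of the hindbrain patterning genes, Hoxb3, Hoxd3 and Hoxd4 lay below saline.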
